A study of Mus musculus with 18 samples.

Results

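Accessible chromatin was examined around 7 genes for surface proteins through which a macrophage meets a T cell, namely Cd40, Cd80, Cd86, Cd274, Pdcd1lg2, Icosl and Tnfsf9. A peak belonged to a gene when it overlapped the gene body extended by 25 kb on both sides, with genes placed by the GENCODE M1 annotation of the mouse genome build mm9, and these stretches are called gene windows here. By this rule 187 of the 194284 peaks were chosen, 37 of them in the authors' promoter class and 150 in their distal class, and all 187 had enough counts to be tested. Cd86 had 39 peaks, Pdcd1lg2 36, Cd40 30, Icosl 27, Cd274 24, Cd80 20 and Tnfsf9 19, and 8 of these peaks were shared by Cd274 and Pdcd1lg2, which are neighbours on chromosome 19. The chosen peaks had a median width of 1116 bp, against 956 bp for all peaks.

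A T cell that recognises antigen on a macrophage also reads a second set of contacts. CD80 and CD86 bind CD28, which costimulates the T cell, and CTLA-4, which restrains it, while PD-L1 (Cd274) and PD-L2 (Pdcd1lg2) bind the inhibitory receptor PD-1. ICOS ligand (Icosl) and 4-1BB ligand (Tnfsf9) costimulate through ICOS and 4-1BB, and CD40 is the receptor by which CD40 ligand on T cells activates the macrophage in turn. Inflammatory stimuli that act through NF-kappaB and interferon signalling are known to induce many of these genes in macrophages, and ATAC-seq, which marks DNA that a transposase can reach, shows where chromatin opens around them.

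The macrophages were grown from bone marrow of 3 Il10-/- mice on the C57BL/6J background, males of 12 weeks, over 6 days in medium with L929 cell supernatant. Every group, the controls included, lacked the Il10 gene, and all libraries are from bulk cells. Cells were given 500 nM (+)-JQ1, an inhibitor of BET bromodomain proteins, or 10 ng/mL IL-10, or neither, for 12 hours, and then 50 ng/mL LPS or PBS for 4 hours more. This made 6 groups (unstimulated, (+)-JQ1, IL-10, LPS, LPS + (+)-JQ1 and LPS + IL-10) of 3 libraries each, numbered 1 to 3 in each group, and the sources used here do not say that a number stands for the same mouse in every group. The authors name a vehicle control for the 12 hours before LPS and describe the unstimulated control as untreated. Whether the groups compared here differed in vehicle is not clear from this. Libraries held between 12020526 and 25908198 counts in peaks. The 187 peaks took 0.0782 to 0.0871% of these counts in the unstimulated libraries, 0.138 to 0.143% with LPS, 0.112 to 0.130% with LPS + (+)-JQ1 and 0.106 to 0.116% with LPS + IL-10.

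Unstimulated libraries 1 and 2 stood apart in their scaling, with TMM factors of 1.24 and 1.15, while library 3 at 1.04 lay within the 0.896 to 1.05 of the other 15 libraries. Of the 26202 tested peaks with a mean of at least 10 CPM (counts relative to the TMM-scaled library size), 46.2% were called higher than unstimulated with (+)-JQ1 alone, 22.8% with IL-10 alone and 27.9% with LPS. Of the 168028 weaker peaks 1.87, 2.4 and 9.21% were. Of the 187 window peaks 35 were in the stronger class. An offset fitted by mean count in each library (a loess curve) was therefore run as an alternative, chosen after the data had been seen, and its values are given where they end or make a call named here. It kept 66 of the 72 calls with LPS among window peaks, 2 of 20 with (+)-JQ1 alone and 9 of 27 with IL-10 alone.

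Genes that define macrophages, such as Spi1, Csf1r and Itgam, had a promoter peak for all 10 of the markers listed, with a summed level of 152 to 235 CPM in unstimulated libraries, 295 to 320 with (+)-JQ1, 253 to 261 with IL-10, 213 to 236 with LPS, 265 to 297 with LPS + (+)-JQ1 and 222 to 255 with LPS + IL-10. Of the 10, 9 were strong peaks of 10 CPM or more. Called higher were 6 with (+)-JQ1 alone and 3 with IL-10 alone, against 46.2 and 22.8% of all strong peaks. After the loess offset 1 and 0 were, against 1.32 and 1.42% of all peaks. No promoter peak was listed for the T cell genes Cd3e, Cd3d, Cd3g and Cd8a, for the dendritic cell gene Cd209a, for the neutrophil genes S100a9 and Ly6g, for the erythroid gene Hbb-b1 or for the fibroblast genes Col1a2, Col3a1 and Dcn. The summed promoter level of the 4 neutrophil genes with a peak was 32.1 to 48.2 CPM in unstimulated, 45.2 to 48.8 in (+)-JQ1, 54.3 to 59.0 in IL-10, 45.0 to 51.2 in LPS, 44.6 to 47.3 in LPS + (+)-JQ1 and 59.3 to 67.7 in LPS + IL-10 libraries, and its part in the results was not tested. Single genes differed within this sum. With LPS Camp was called higher (log2 fold-change 1.72) and S100a8 was not (-0.25), against 14.3% of promoter-class peaks. S100a8 was called higher with IL-10 before LPS (0.93), against 3.04%. Elane and Mpo were called in neither comparison. The summed level of the 4 dendritic cell genes with a peak was 31.3 to 42.2, 43.4 to 56.3, 46.1 to 46.5, 44.7 to 49.4, 37.3 to 49.9 and 38.7 to 45.7 CPM in the 6 groups in the same order, and its part was not tested either. Over all libraries the listed genes with a peak summed to 24.6 to 45.2 CPM for T cells (2 of 6), 13.9 to 21.6 for 4 B cell genes, 12.7 to 19.4 for erythroid cells (3 of 4) and 31.5 to 44.3 for fibroblasts (2 of 5). In bulk libraries a change in every cell and a change in the share of cells with open chromatin cannot be told apart.

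The 7 sequences shown here are the Cd40 promoter and the centres of 6 elements away from the gene starts on which the results turn. Each is 300 bases, read on the plus strand of mm9, in lower case with capitals for a match to a motif searched. The Cd40 promoter (chr2:164880827-164881126) ends at the base before the transcription start. The elements at +19371 and +21786 bp from the Cd40 start (centres chr2:164900349-164900648 and chr2:164902764-164903063) lie downstream of the gene, that at +67745 bp from the Cd86 start (chr16:36598273-36598572) beyond the end of Cd86, that at +10719 bp (chr10:77542675-77542974) inside Icosl, that at +23554 bp (chr19:29465350-29465649) between Cd274 and Pdcd1lg2, and that at +73862 bp (chr19:29559122-29559421) beyond the end of Pdcd1lg2. Distances run from the start of the gene to the centre of the peak, in the direction of transcription.
Cd40 promoter: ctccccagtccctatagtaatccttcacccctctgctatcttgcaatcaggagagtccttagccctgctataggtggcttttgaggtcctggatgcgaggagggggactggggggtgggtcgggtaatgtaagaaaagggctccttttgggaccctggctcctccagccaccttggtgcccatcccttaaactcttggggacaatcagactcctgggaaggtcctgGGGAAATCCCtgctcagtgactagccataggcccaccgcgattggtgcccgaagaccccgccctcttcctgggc
Cd40 +19371: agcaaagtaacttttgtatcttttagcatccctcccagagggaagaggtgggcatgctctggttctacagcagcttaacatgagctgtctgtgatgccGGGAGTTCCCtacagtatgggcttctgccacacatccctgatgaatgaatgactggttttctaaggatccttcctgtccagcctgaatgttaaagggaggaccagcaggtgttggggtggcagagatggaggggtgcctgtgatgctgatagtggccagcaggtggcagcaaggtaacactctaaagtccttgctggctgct
Cd40 +21786: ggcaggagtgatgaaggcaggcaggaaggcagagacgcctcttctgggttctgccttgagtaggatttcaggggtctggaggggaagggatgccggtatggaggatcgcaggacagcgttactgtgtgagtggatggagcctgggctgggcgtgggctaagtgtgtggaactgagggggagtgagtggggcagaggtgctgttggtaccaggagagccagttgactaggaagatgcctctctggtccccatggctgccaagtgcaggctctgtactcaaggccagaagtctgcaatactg
Cd86 +67745: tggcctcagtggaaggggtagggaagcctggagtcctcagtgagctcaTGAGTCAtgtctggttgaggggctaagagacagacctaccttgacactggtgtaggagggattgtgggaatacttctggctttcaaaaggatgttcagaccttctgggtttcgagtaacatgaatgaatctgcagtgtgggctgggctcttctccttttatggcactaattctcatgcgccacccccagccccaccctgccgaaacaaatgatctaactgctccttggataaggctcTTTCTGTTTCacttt
Icosl +10719: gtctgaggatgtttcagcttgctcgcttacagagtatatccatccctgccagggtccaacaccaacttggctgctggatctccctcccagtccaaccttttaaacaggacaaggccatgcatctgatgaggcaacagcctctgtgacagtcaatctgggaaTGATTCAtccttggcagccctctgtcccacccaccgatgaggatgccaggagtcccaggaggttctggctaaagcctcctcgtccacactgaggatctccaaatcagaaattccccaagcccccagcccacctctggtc
Cd274 +23554: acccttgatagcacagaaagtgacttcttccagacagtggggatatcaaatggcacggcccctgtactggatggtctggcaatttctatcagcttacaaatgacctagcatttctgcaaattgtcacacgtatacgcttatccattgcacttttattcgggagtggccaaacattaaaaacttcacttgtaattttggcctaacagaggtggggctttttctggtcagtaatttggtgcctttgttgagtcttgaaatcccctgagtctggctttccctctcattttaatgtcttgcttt
Pdcd1lg2 +73862: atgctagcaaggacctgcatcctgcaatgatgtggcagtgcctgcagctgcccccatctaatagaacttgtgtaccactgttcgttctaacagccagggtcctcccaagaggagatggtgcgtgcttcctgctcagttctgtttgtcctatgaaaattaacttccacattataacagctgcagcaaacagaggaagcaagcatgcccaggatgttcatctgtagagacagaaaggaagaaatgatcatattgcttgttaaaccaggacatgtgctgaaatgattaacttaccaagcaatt

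In these stretches the capitals mark a kappaB match in the Cd40 promoter (GGGAAATCCC) and at Cd40 +19371 (GGGAGTTCCC), an AP-1 match at Cd86 +67745 (TGAGTCA) and at Icosl +10719 (TGATTCA), and an ISRE match at Cd86 +67745 (TTTCTGTTTC). The other 3 hold no match. The motifs searched, on both strands, were kappaB, AP-1 (TGANTCA), ISRE, the STAT site GAS (TTCNNNGAA) and PU.1 (GAGGAAGT), in the central 300 bp of every peak. A kappaB match was present in 16 of the 187 window peaks (8.56%) and in 5.98% of all peaks, AP-1 in 25 (13.4%) and 12.1%, ISRE in 15 (8.02%) and 4.40%, GAS in 23 (12.3%) and 8.74%, and PU.1 in 4 (2.14%) and 4.58%. In the 300 bases before the transcription start, kappaB matched in 3 of the 7 genes, Cd40, Pdcd1lg2 and Icosl, and in 8.90% of 22380 promoters, and AP-1 matched in Cd80 and in 7.11% of promoters. ISRE, GAS and PU.1 matched in none of the 7 and in 4.12, 8.22 and 2.56% of promoters. A match is a description of letters, and its absence says only that those letters are not in that window.

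LPS raised accessibility in the windows of all 7 genes, though not at every gene start. Of the 187 peaks, 72 were higher after LPS and 0 were lower, where 11.7% and 10.2% of all 194230 tested peaks were called higher and lower. A peak was called when its FDR, the Benjamini-Hochberg adjusted p of edgeR's quasi-likelihood test over all peaks, was under 0.05 and its log2 fold-change was beyond 0.5 in either direction. The median log2 fold-change of the 187 was 0.54, against -0.03 for all peaks, and it was 1.36 in the Cd40 window and 1.30 in the Cd274 window. Calls were 18 of 30 around Cd40, 15 of 24 around Cd274, 13 of 27 around Icosl, 7 of 19 around Tnfsf9, 12 of 39 around Cd86, 10 of 36 around Pdcd1lg2 and 3 of 20 around Cd80, with peaks in both of the neighbouring windows counted in each. The 3 calls around Cd80 lay upstream, at -17.1 to -6.74 kb from the start, and 0 of its 6 gene body peaks were called. Counting reads by total counts instead of TMM moved the median of all peaks to -0.26 and left 61 higher and 2 lower, against 6.58 and 19.3% of all peaks, the loess offset left 70 and 0, against 9.82 and 8.98%, and of the 35 strong peaks 22 were called higher against 27.9% of all strong peaks.

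(+)-JQ1 given before LPS lowered 24 of the 187 peaks and raised 4, where 3.49% and 1.74% of all peaks were called lower and higher, and 12 of the falls lay around Cd40. Cd86 had 5 lower peaks, Cd274 and Pdcd1lg2 the same 3, Icosl 3, Tnfsf9 1 and Cd80 0. IL-10 given before LPS lowered 38 peaks and raised 6, against 4.51% and 4.26% of all peaks: 17 fell around Cd40, 13 around Cd86, 6 around Icosl and 1 each around Cd80 and at a peak shared by Cd274 and Pdcd1lg2, while the 6 rises were 4 around Pdcd1lg2 and 2 around Tnfsf9. The comparison of LPS with unstimulated and both of these use the same 3 LPS libraries, so their values are set side by side and not counted against each other. Without replicate 2 the falls with (+)-JQ1 numbered 14 and the rises 0, and without replicate 1 or replicate 3 the rises with IL-10 numbered 3 and 2. Of the 35 strong window peaks 4 were lower and 4 higher with (+)-JQ1, against 3.49 and 4.63% of all strong peaks. For IL-10 they were 6 and 2, against 4.56 and 5.77%. In the promoter class 2 of 37 peaks fell with (+)-JQ1, against 3.22%, and in the distal class 22 of 150, against 3.55%.

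**Figure D1:**
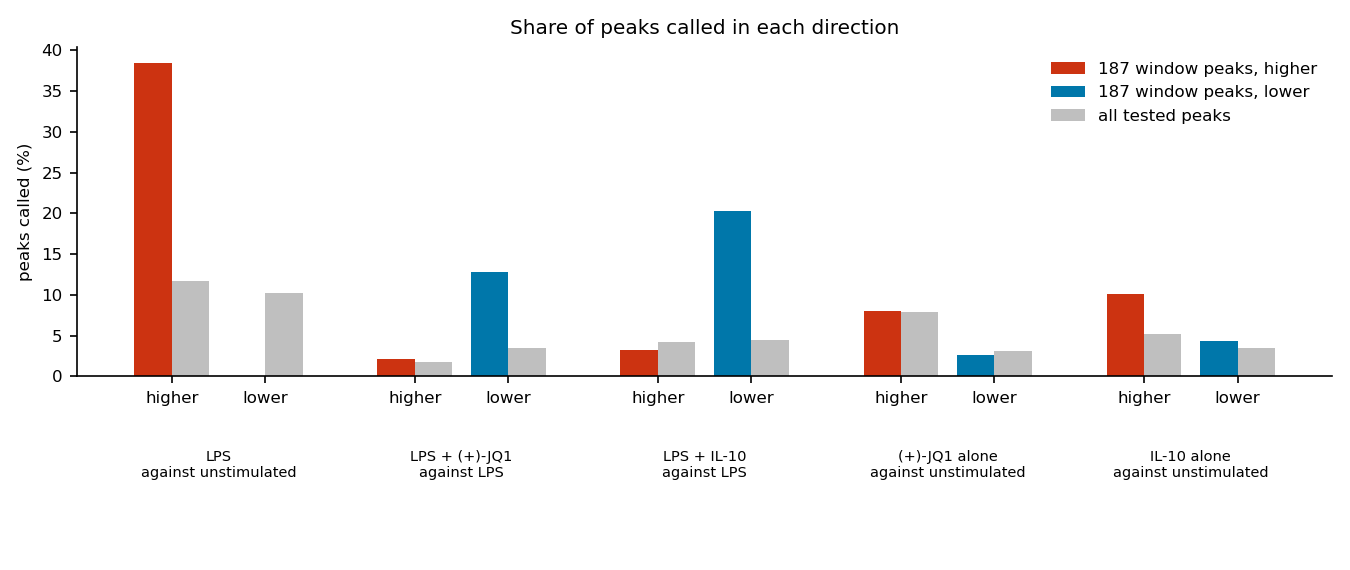
Share of the 187 window peaks (red, higher; blue, lower) and of all tested peaks (grey) that were called in 5 comparisons, in percent of peaks tested. With LPS the red bar stands at 38.5% and its grey partner at 11.7%, and with LPS + IL-10 the blue bar stands at 20.3% and its grey partner at 4.51%.

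Summed over each window, the counts gave 1 value per gene and library, tested in the same way over 18956 protein-coding genes and called at an FDR under 0.05 with no threshold on size. After LPS all 7 windows were called higher and 0 lower, where 26.8% and 24.6% of all gene windows were called higher and lower, and all 7 were also called after the loess offset (0.23 to 1.67). With (+)-JQ1 before LPS 4 windows were lower than with LPS (Cd40, Cd86, Cd274 and Tnfsf9) and 0 higher, against 13.7% and 10.0% of windows. With IL-10 before LPS 3 were lower (Cd40, Cd86 and Icosl) and 1 higher (Pdcd1lg2), against 17.4% and 18.3%. Other protein-coding genes lie in 6 of the windows, all but that of Cd86 (for example Ncoa5 beside Cd40 and Dnmt3l beside Icosl), so a window's sum is not that of its gene alone.

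**Figure D2:**
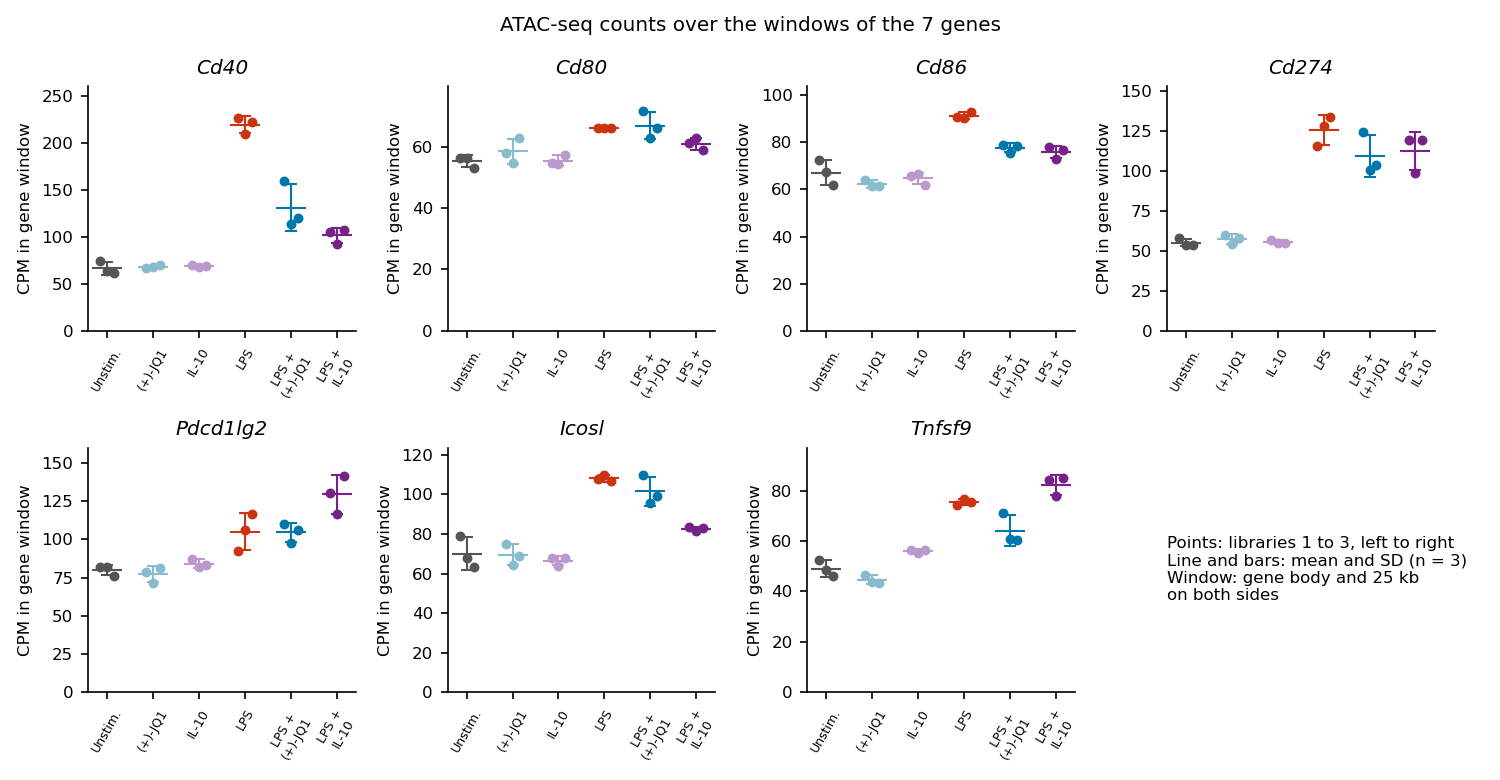
CPM summed over all peaks of each gene window (y axis, from 0) in the 18 libraries, by group; points are libraries 1 to 3, with the mean and SD of 3. The Cd40 window rose from 61.1 to 74.4 CPM in unstimulated libraries to 209 to 226 with LPS, and the Pdcd1lg2 window was highest with LPS + IL-10, at 116 to 141 CPM.

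Cd40 lies at chr2:164881127-164898448 on the plus strand. The Cd40 window held 74.4, 63.5 and 61.1 CPM in the unstimulated libraries and 226, 209 and 222 CPM with LPS. It held 159, 114 and 120 CPM with LPS + (+)-JQ1, and 105, 92.2 and 107 CPM with LPS + IL-10. These 4 groups did not overlap, whereas (+)-JQ1 alone (66.8 to 69.4 CPM) and IL-10 alone (68.1 to 69.9 CPM) overlapped with the unstimulated group. The log2 fold-change was 1.73 ± 0.08 (SE) with LPS (FDR = 4.8e-16), -0.75 ± 0.08 for LPS + (+)-JQ1 against LPS (FDR = 3.3e-08) and -1.11 ± 0.08 for LPS + IL-10 against LPS (FDR = 9.8e-12). Library 1 of LPS + (+)-JQ1 stood above the other 2 of its group here.

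Called peaks around Cd40 formed a run through the gene and past its end. Of the 6 peaks over the gene body 6 rose with LPS, 5 fell with (+)-JQ1 and 6 with IL-10, and of the 12 downstream peaks 8 rose, 6 fell and 10 fell, while of the 12 upstream peaks 4 rose, 1 fell and 1 fell. Rises with LPS spanned -21.1 to 35.7 kb from the start and 0.62 to 4.24 on the log2 scale. Falls with (+)-JQ1 spanned -5.23 to 31.8 kb and -1.61 to -0.72, and falls with IL-10 -5.23 to 35.7 kb and -2.92 to -0.72.

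The downstream element at +21786 bp (chr2:164902562-164903264, intergenic), printed above without a motif match, was close to closed before LPS. It held 1.41, 1.26 and 1.15 CPM in the unstimulated libraries and 26.5, 20.9 and 23.4 CPM with LPS. With LPS + (+)-JQ1 the values were 11.8, 6.93 and 5.97 CPM, and with LPS + IL-10 they were 4.52, 3.01 and 3.86 CPM. No library of these 4 groups overlapped with another group, and (+)-JQ1 alone (0.732 to 1.25 CPM) and IL-10 alone (0.632 to 1.23 CPM) overlapped with the unstimulated libraries. It rose by 4.21 ± 0.21 with LPS (FDR = 7.6e-33), and differed from LPS by -1.56 ± 0.17 with (+)-JQ1 (FDR = 3.6e-12) and by -2.63 ± 0.18 with IL-10 (FDR = 6.5e-23), the smallest FDR of any Cd40 peak in both of those comparisons.

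The element at +19371 bp (chr2:164899572-164901425, intergenic), whose sequence holds a kappaB match, held 5.09, 6.92 and 5.64 CPM in the unstimulated libraries and 71.1, 65.1 and 57.8 CPM with LPS. The values were 40.0, 24.8 and 25.6 CPM with LPS + (+)-JQ1 and 20.9, 17.7 and 20.5 CPM with LPS + IL-10. Again the 4 groups did not overlap. The changes were 3.45 ± 0.16 with LPS (FDR = 2.0e-35, the smallest of the window), -1.11 ± 0.14 with (+)-JQ1 (FDR = 1.5e-09) and -1.71 ± 0.14 with IL-10 (FDR = 1.5e-17).

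At the Cd40 promoter, where the sequence with the kappaB match lies, the peak at +330 bp (chr2:164880570-164882345, over the start and the first exon) was already open before LPS. It held 13.7, 13.7 and 19.0 CPM unstimulated, 68.8, 61.9 and 65.9 CPM with LPS, 62.2, 44.2 and 41.8 CPM with (+)-JQ1 before LPS and 36.5, 32.6 and 33.7 CPM with LPS + IL-10. The LPS and LPS + (+)-JQ1 libraries overlapped, and the LPS + IL-10 libraries were below both. It rose by 2.08 ± 0.14 with LPS (FDR = 1.6e-23) and fell by 0.93 with IL-10 (SE 0.14, FDR = 1.1e-07), while its difference with (+)-JQ1 of -0.41 ± 0.14 (FDR = 0.049) did not reach the fold threshold. With the loess offset the (+)-JQ1 difference was -0.50 and was called (FDR = 1.8e-05).

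A peak at +5059 bp inside Cd40 (chr2:164882680-164889693), 7013 bp wide and classed as promoter because it covers the start of another Cd40 transcript, was called in all 3 comparisons. Its levels of 14.2 to 15.7 CPM unstimulated, 37.5 to 42.2 with LPS, 21.3 to 28.3 with LPS + (+)-JQ1 and 15.3 to 19.0 with LPS + IL-10 gave 1.41 ± 0.14 with LPS (FDR = 4.5e-15), -0.72 ± 0.13 with (+)-JQ1 (FDR = 4.8e-05) and -1.20 ± 0.14 with IL-10 (FDR = 1.9e-11). The weak promoter peak at -1201 bp rose from 0.879 to 1.94 CPM to 4.87 to 6.09 CPM with LPS (2.06 ± 0.26, FDR = 2.4e-10). Its differences of -0.64 with (+)-JQ1 (FDR = 0.081) and -0.29 with IL-10 (FDR = 0.47) were not called, though with the replicate block the former was (-0.68, FDR = 0.043).

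**Figure D3:**
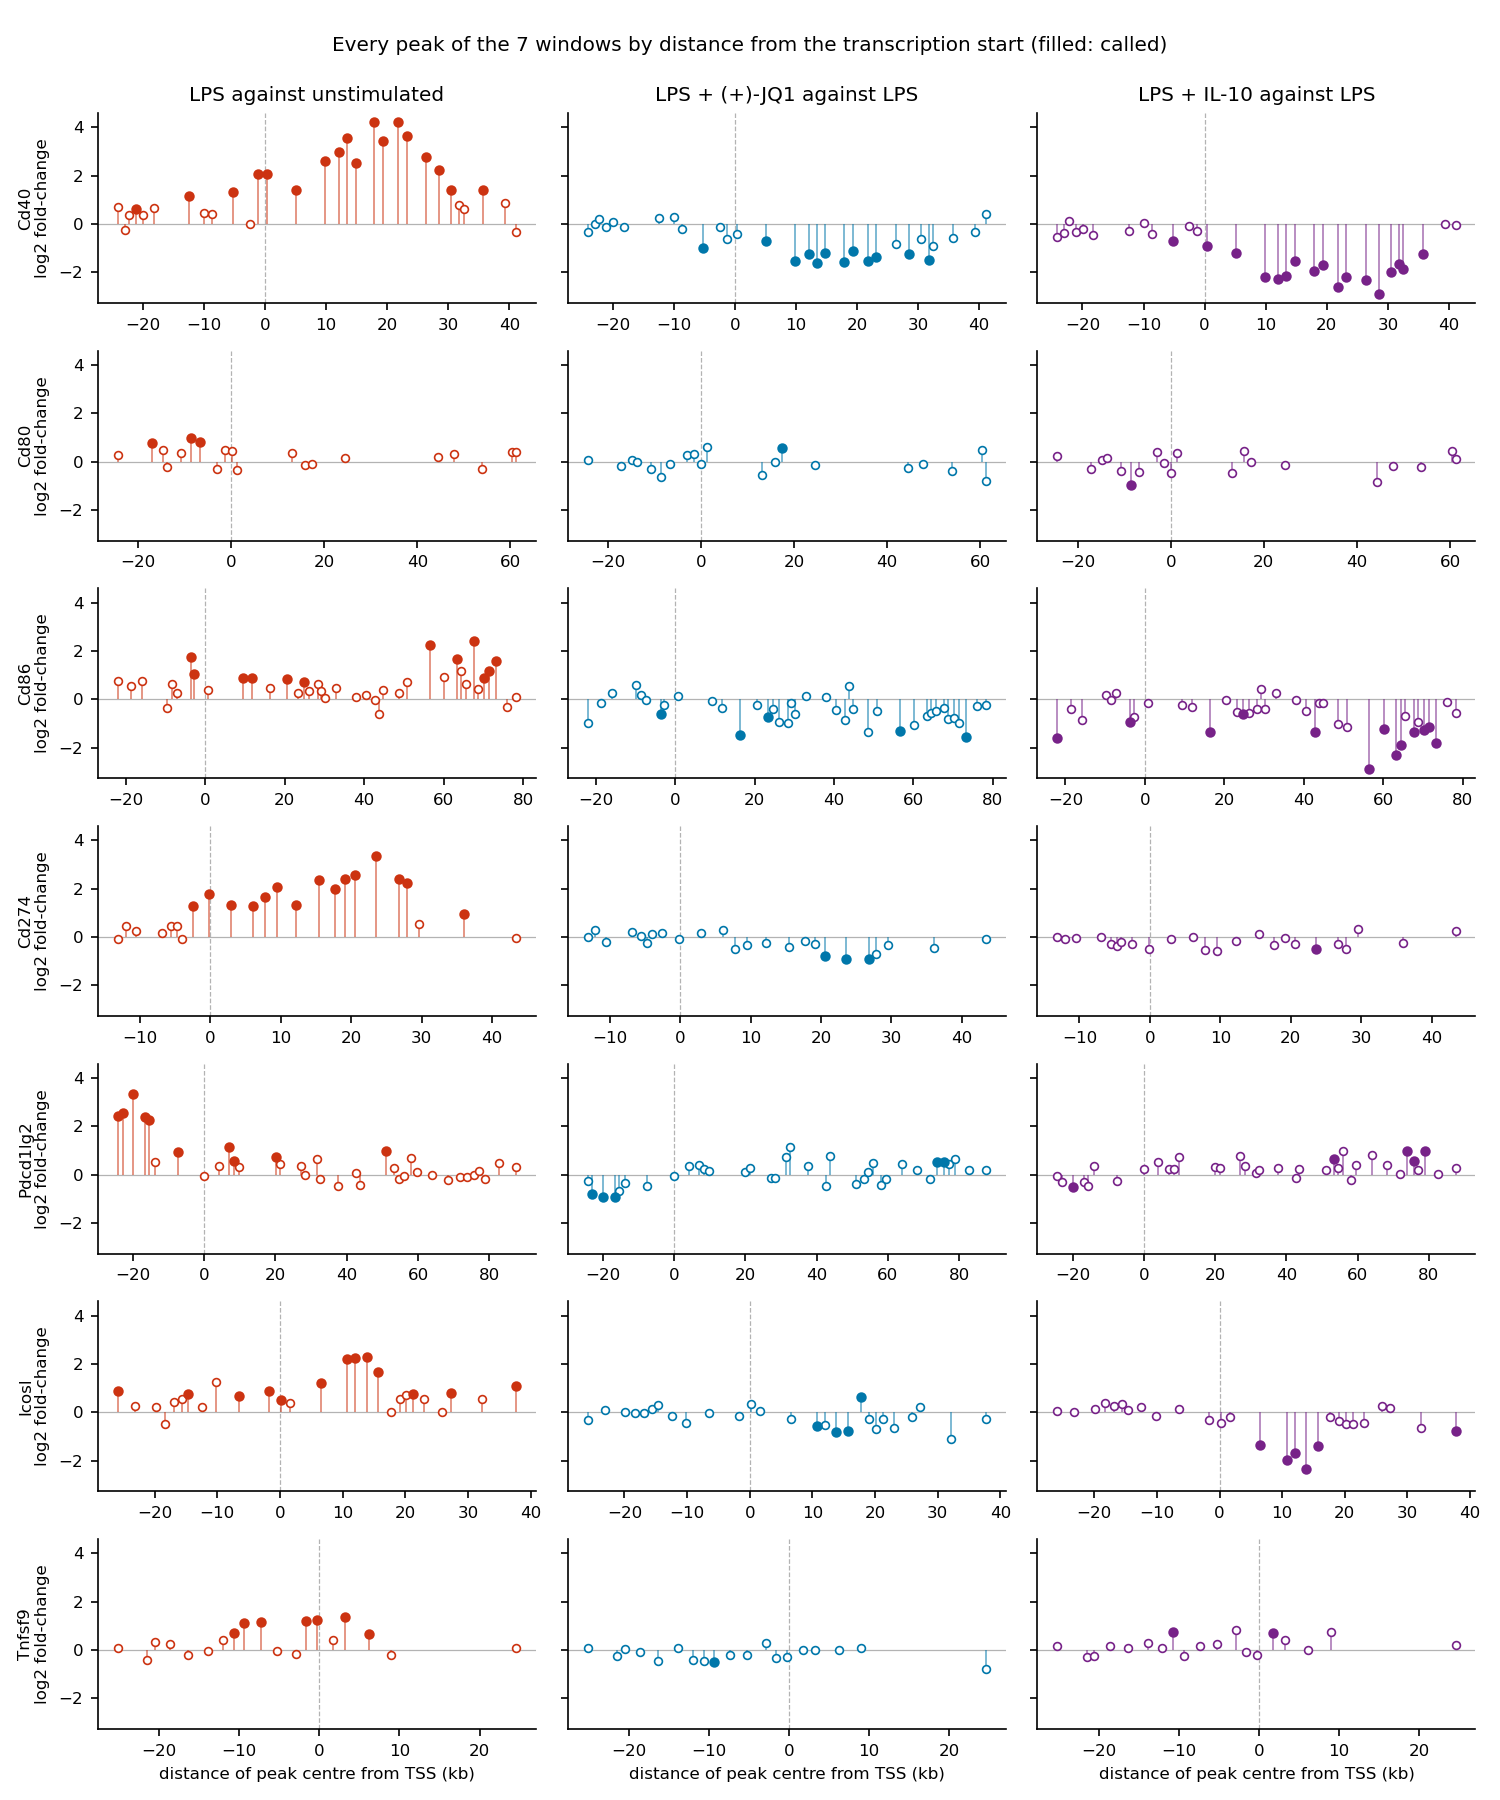
Log2 fold-change of each of the 187 peaks (y axis) against the distance of its centre from the transcription start in kb (x axis), by gene and comparison; filled points were called. The Cd40 points rise with LPS to 4.24 within the gene and its downstream flank and fall there with LPS + (+)-JQ1 and LPS + IL-10. Past the end of Cd86, called points rise with LPS and fall mainly with LPS + IL-10, and the Cd80 points stay between -1 and 1.

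Cd86 and Cd80, the paired ligands of CD28 and CTLA-4, differed in how many of their peaks passed the test, which is a description and was not itself tested. Cd86 lies on the minus strand at chr16:36603955-36666167. The Cd86 window held 72.4, 67.2 and 61.8 CPM unstimulated and 90.7, 90.2 and 92.9 CPM with LPS. It held 78.8, 75.5 and 78.6 CPM with LPS + (+)-JQ1 and 77.9, 72.9 and 76.7 CPM with LPS + IL-10. The LPS libraries were above all others, and the 2 treated groups overlapped with each other. Its log2 fold-change was 0.45 ± 0.05 with LPS (FDR = 1.5e-08), -0.23 ± 0.05 with (+)-JQ1 (FDR = 0.00064) and -0.27 ± 0.05 with IL-10 (FDR = 8.2e-05), and without replicate 2 the (+)-JQ1 difference was -0.21 with an FDR of 0.057.

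Past the end of Cd86, 5 of 10 downstream peaks rose with LPS (by 0.88 to 2.43), 1 fell with (+)-JQ1 and 6 fell with IL-10 (log2 fold-change -2.30 to -1.14), while of the 21 peaks over the gene body 5 rose, 3 fell and 5 fell. The element at +67745 bp (chr16:36597794-36599050, intergenic, in the promoter class of the authors), with an AP-1 and an ISRE match, held 3.08, 3.13 and 3.40 CPM unstimulated and 21.2, 15.5 and 15.2 CPM with LPS. It held 12.1, 14.4 and 13.4 CPM with LPS + (+)-JQ1 and 7.11, 6.32 and 6.84 CPM with LPS + IL-10. None of these 4 groups overlapped. It rose by 2.43 ± 0.17 with LPS (FDR = 7.9e-23) and fell by 1.36 with IL-10 (SE 0.16, FDR = 3.6e-11), whereas with (+)-JQ1 the difference of -0.38 ± 0.15 was not called (FDR = 0.13).

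Other Cd86 peaks were weaker. The element at +73294 bp, at 1.35 to 2.02 CPM with LPS, rose by 1.57 ± 0.41 with LPS (FDR = 0.0023) and differed from LPS by -1.56 ± 0.41 with (+)-JQ1 (FDR = 0.0077) and -1.82 ± 0.41 with IL-10 (FDR = 0.00097). Without replicate 1 the last 2 had an FDR of 0.086 (-1.33) and 0.11 (-1.21), and without replicate 3 the (+)-JQ1 value was -1.49 (FDR = 0.11). At +70170 bp the peak rose by 0.88 ± 0.28 with LPS (FDR = 0.014) and fell by 1.29 with IL-10 (SE 0.29, FDR = 0.00067), and without replicate 3 the LPS value was 0.55 (FDR = 0.26).

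The Cd86 promoter peak at +810 bp (5353 bp wide) held 16.0 to 20.5 CPM unstimulated, 23.3 to 24.1 with LPS, 25.4 to 26.7 with LPS + (+)-JQ1 and 20.2 to 23.2 with LPS + IL-10, and was called in none of the 3 comparisons (0.37 with LPS, FDR = 0.032; 0.13 with (+)-JQ1, FDR = 0.69; -0.14 with IL-10, FDR = 0.59). A promoter-class peak at +23306 bp fell by 0.73 with (+)-JQ1 (SE 0.22, FDR = 0.032), from 4.54 to 5.97 CPM with LPS to 2.89 to 3.45 CPM, and was lost as a call without replicate 2 (-0.76, FDR = 0.16) and without replicate 3 (-0.56, FDR = 0.33). Another at +60092 bp, at 1.24 to 2.15 CPM with LPS, fell by 1.25 with IL-10 (SE 0.37, FDR = 0.017), a call lost without replicate 2 (-1.46, FDR = 0.069) and without replicate 3 (-0.82, FDR = 0.34).

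With LPS the Cd80 window had the smallest log2 fold-change of the 7. Cd80 lies at chr16:38459013-38495821 on the plus strand. It held 56.4, 56.4 and 53.0 CPM unstimulated, 66.1, 66.2 and 66.0 CPM with LPS, 71.7, 62.9 and 66.0 CPM with (+)-JQ1 before LPS and 61.3, 62.8 and 58.9 CPM with LPS + IL-10. LPS libraries were above unstimulated ones (0.26 ± 0.05, FDR = 0.00021). The differences from LPS were 0.01 ± 0.05 with (+)-JQ1 (FDR = 0.88) and -0.12 ± 0.05 with IL-10 (FDR = 0.085), and neither was called, although the latter was with windows of 10 kb (-0.14, FDR = 0.047).

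At the Cd80 start the peak at +96 bp held 2.25 to 3.18 CPM unstimulated and 2.57 to 4.74 CPM with LPS and was called in no comparison (0.42 with LPS, FDR = 0.20). The stronger promoter-class peak at -1417 bp held 7.83, 12.6 and 16.9 CPM unstimulated and 18.4, 16.8 and 17.3 CPM with LPS, which overlap (0.48, FDR = 0.011, under the fold threshold). Farther upstream, over an exon of the neighbouring gene Adprh, the peak at -6737 bp held 20.01, 21.2 and 26.2 CPM unstimulated and 43.1, 41.0 and 34.9 CPM with LPS, which do not overlap. This peak is in the promoter class of the authors but not over a start of Cd80. It rose by 0.82 ± 0.14 (FDR = 7.8e-07), but by 0.44 and without a call after the loess offset. The weak peak at -8626 bp, also over Adprh, rose by 0.99 ± 0.28 with LPS (FDR = 0.0045) and fell by 0.97 with IL-10 (SE 0.27, FDR = 0.0096). Those calls were lost without replicate 3 (0.57, FDR = 0.24, and -0.92, FDR = 0.11), and that with IL-10 also without replicate 2 (-0.99, FDR = 0.088).

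An intronic Cd80 peak at +17344 bp moved the other way with (+)-JQ1. In the LPS libraries it held 12.9, 10.3 and 14.9 CPM and in the LPS + (+)-JQ1 libraries 19.9, 18.8 and 17.5 CPM, which do not overlap (0.56 ± 0.14, FDR = 0.0063). The call was lost without replicate 2 (0.42, FDR = 0.34) and after the loess offset (0.49, under the fold threshold).

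The PD-1 ligand genes Cd274 and Pdcd1lg2 share the stretch between them (Cd274 at chr19:29441945-29462585 and Pdcd1lg2 at chr19:29485409-29545647, both on the plus strand). All 10 peaks over the Cd274 gene body rose with LPS, by 1.29 to 2.56, and 4 of 6 downstream, by 0.94 to 3.35. The Cd274 window held 58.1, 53.8 and 53.8 CPM unstimulated and 116, 128 and 134 CPM with LPS. With LPS + (+)-JQ1 it held 125, 100.3 and 104 CPM and with LPS + IL-10 119, 98.6 and 120 CPM, and all 3 groups with LPS overlapped. The change was 1.19 ± 0.07 with LPS (FDR = 7.4e-14), -0.20 ± 0.07 with (+)-JQ1 (FDR = 0.032) and -0.16 ± 0.07 with IL-10 (FDR = 0.070, or -0.19 with an FDR of 0.036 and a call after the loess offset), and without replicate 2 or replicate 3 the (+)-JQ1 difference was -0.11 (FDR = 0.40).

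The Cd274 promoter peak at -195 bp (chr19:29441035-29442466, over the start) held 8.90, 11.0 and 13.9 CPM unstimulated, 40.8, 37.0 and 37.8 CPM with LPS, 40.3, 35.4 and 32.1 CPM with (+)-JQ1 before LPS and 30.2, 23.1 and 28.5 CPM with LPS + IL-10. The LPS + (+)-JQ1 libraries overlapped with LPS and the LPS + IL-10 libraries were below both. It rose by 1.77 ± 0.15 with LPS (FDR = 4.5e-19). Its differences from LPS were -0.11 ± 0.14 with (+)-JQ1 (FDR = 0.76) and -0.50 ± 0.14 with IL-10 (FDR = 0.0081), the latter at the edge of the fold threshold and not called.

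The element between both genes, at +23554 bp from Cd274 and -19910 bp from Pdcd1lg2 (chr19:29464693-29466305, intergenic), was the strongest LPS response of the pair. It held 2.88, 1.70 and 1.64 CPM unstimulated and 20.4, 19.9 and 22.2 CPM with LPS. With LPS + (+)-JQ1 it held 12.3, 10.2 and 10.7 CPM and with LPS + IL-10 17.4, 12.2 and 14.3 CPM, so that both treated groups lay below LPS and overlapped with each other. It rose by 3.35 ± 0.19 with LPS (FDR = 6.5e-30) and fell by 0.92 with (+)-JQ1 (SE 0.15, FDR = 3.6e-06). The difference with IL-10 was -0.51 ± 0.15 (FDR = 0.014), a call lost without replicate 2 (-0.43, FDR = 0.23), without replicate 3 (-0.44, FDR = 0.15) and with total counts (-0.44).

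At the start of Pdcd1lg2 little signal was present. Its promoter peak at -51 bp (chr19:29485030-29485687) held 1.00 to 1.43 CPM unstimulated and 0.999 to 1.31 CPM with LPS and was called in no comparison (LPS -0.06 ± 0.35, FDR = 0.93), at a depth where this SE leaves changes of moderate size undetectable. The Pdcd1lg2 window includes the 8 peaks shared with Cd274, among them the strongly rising element at -19910 bp. Its rise with LPS is therefore not that of Pdcd1lg2 alone. This window held 81.8, 81.6 and 76.0 CPM unstimulated and 92.7, 106 and 117 CPM with LPS. It held 110, 97.5 and 106 CPM with LPS + (+)-JQ1 and 130, 116 and 141 CPM with LPS + IL-10. Libraries with LPS were above unstimulated ones (0.40 ± 0.07, FDR = 2.4e-05), and the LPS + IL-10 libraries were higher than the LPS ones with 1 value overlapping (0.30 ± 0.07, FDR = 0.00073), while LPS + (+)-JQ1 differed from LPS by -0.01 ± 0.07 (FDR = 0.96).

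Peaks that rose with IL-10 lay toward the far end of the Pdcd1lg2 window. The 4 peaks that rose with IL-10 lay between 53.3 and 78.9 kb from the start and changed by 0.55 to 0.99. The element at +73862 bp (chr19:29558301-29560241, intergenic), printed above without a motif match, held 6.89, 9.51 and 9.86 CPM unstimulated and 8.09, 8.54 and 8.30 CPM with LPS. It held 12.4, 11.5 and 12.3 CPM with LPS + (+)-JQ1 and 16.5, 16.0 and 16.7 CPM with LPS + IL-10. LPS alone did not change it beyond the spread (-0.08 ± 0.15, FDR = 0.74), and both treated groups lay above LPS without overlap. The difference from LPS was 0.98 ± 0.14 with IL-10 (FDR = 1.2e-07) and 0.54 ± 0.15 with (+)-JQ1 (FDR = 0.013), and the latter lost its call whichever replicate was left out (0.50 to 0.59, FDR 0.064 to 0.12) and after the loess offset (0.49).

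**Figure D4:**
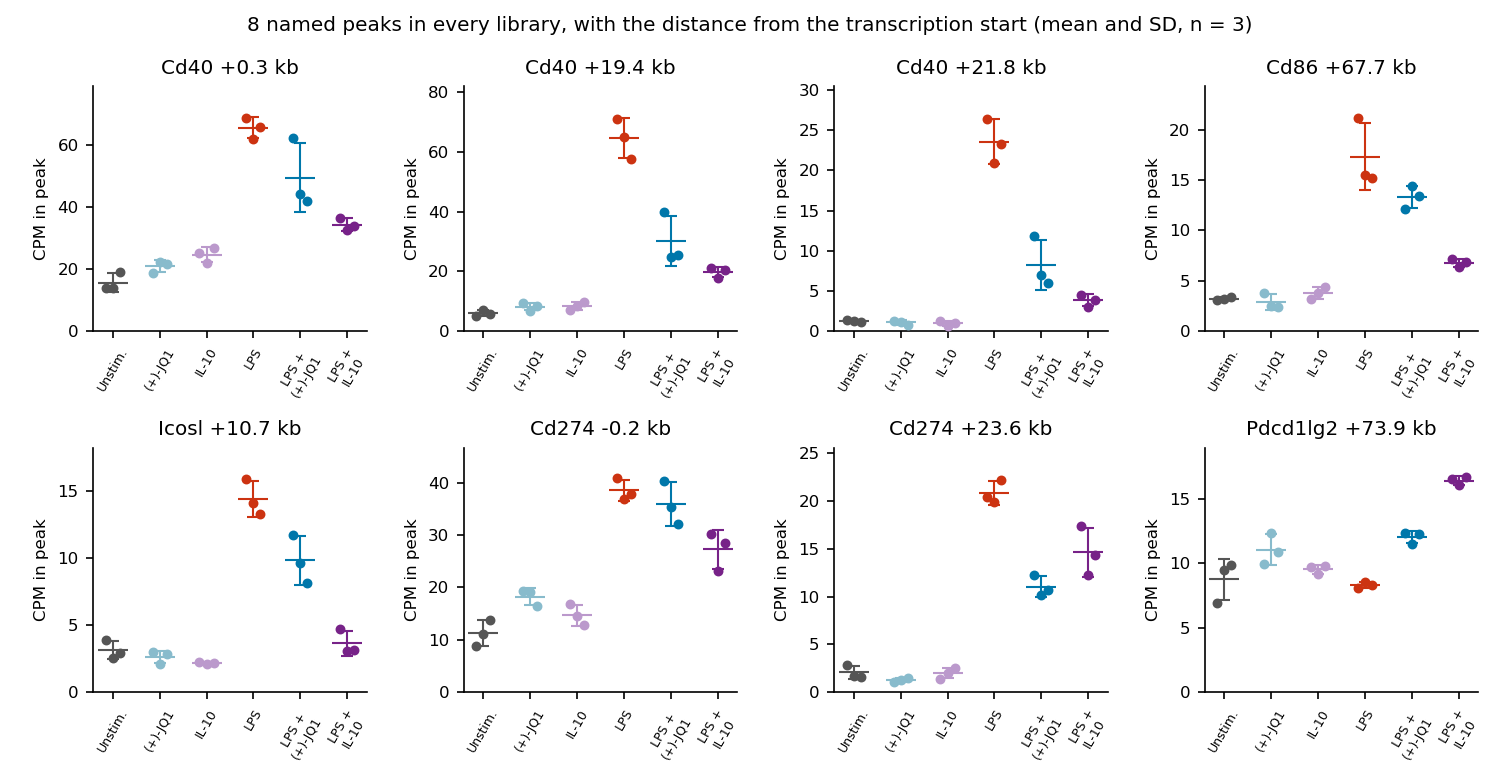
CPM of 8 named peaks (y axis, from 0) in the 18 libraries by group, with the mean and SD of 3. Cd40 at +21.8 kb stands at 20.9 to 26.5 CPM with LPS and at 3.01 to 4.52 CPM with LPS + IL-10, whereas Pdcd1lg2 at +73.9 kb is highest with LPS + IL-10, at 16.0 to 16.7 CPM.

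Icosl, the gene of ICOS ligand (chr10:77532105-77546000, plus strand), held 79.2, 67.6 and 63.4 CPM over its window unstimulated and 108, 110 and 107 CPM with LPS. It held 110, 95.7 and 99.4 CPM with LPS + (+)-JQ1 and 83.5, 81.5 and 83.1 CPM with LPS + IL-10. The LPS and LPS + (+)-JQ1 groups overlapped, and LPS + IL-10 lay between them and the unstimulated libraries. The change was 0.63 ± 0.06 with LPS (FDR = 1.5e-09) and -0.39 ± 0.06 with IL-10 (FDR = 1.1e-05), and -0.09 ± 0.06 with (+)-JQ1 was not called (FDR = 0.28).

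The Icosl element at +10719 bp (chr10:77542069-77543580, over exons and UTR of the gene), with an AP-1 match, held 3.88, 2.58 and 2.96 CPM unstimulated and 15.9, 14.1 and 13.3 CPM with LPS. It held 11.7, 9.61 and 8.14 CPM with LPS + (+)-JQ1 and 4.72, 3.07 and 3.12 CPM with LPS + IL-10, the last of which overlapped with the unstimulated libraries. It rose by 2.21 ± 0.18 with LPS (FDR = 7.2e-19), and differed from LPS by -1.98 ± 0.18 with IL-10 (FDR = 4.1e-16) and by -0.57 ± 0.16 with (+)-JQ1 (FDR = 0.017). The (+)-JQ1 call was lost without replicate 2 (-0.58, FDR = 0.16) and without replicate 3 (-0.50, FDR = 0.20). Around it, 4 of the 6 gene body peaks fell with IL-10 (log2 fold-change -2.34 to -1.35) and 2 with (+)-JQ1 (-0.80 to -0.57).

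The Icosl promoter peak at +251 bp (chr10:77531915-77532797) rose with LPS from 12.9 to 16.8 CPM to 19.1 to 23.3 CPM (0.51 ± 0.14, FDR = 0.0031), a call lost without replicate 1 (0.39, FDR = 0.086), without replicate 2 (0.48, FDR = 0.10) and after the loess offset (0.22, FDR = 0.13). Its differences from LPS were 0.34 ± 0.13 with (+)-JQ1 (FDR = 0.13) and -0.46 ± 0.14 with IL-10 (FDR = 0.019), under the fold threshold. Downstream, the peak at +17709 bp held 16.6 to 19.5 CPM with LPS, and in the LPS + (+)-JQ1 libraries it held 24.8, 28.8 and 27.1 CPM, a rise of 0.63 ± 0.14 (FDR = 0.00098, or 0.67 with an FDR of 0.056 without replicate 2).

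Tnfsf9, the gene of 4-1BB ligand (chr17:57244808-57247180, plus strand), held 52.5, 48.3 and 46.1 CPM over its window unstimulated and 74.4, 76.4 and 75.6 CPM with LPS. It held 71.1, 60.9 and 60.4 CPM with LPS + (+)-JQ1, all below LPS, and 84.0, 77.7 and 84.8 CPM with LPS + IL-10, all above it. The change was 0.63 ± 0.06 with LPS (FDR = 4.1e-10) and -0.24 ± 0.06 with (+)-JQ1 (FDR = 0.0021), while 0.12 ± 0.06 with IL-10 was not called (FDR = 0.081). The (+)-JQ1 call was lost without replicate 2 (-0.18, FDR = 0.15) and without replicate 3 (-0.19, FDR = 0.055).

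The Tnfsf9 promoter peak at -270 bp (chr17:57243887-57245190) held 13.5, 14.8 and 14.7 CPM unstimulated, 36.7, 32.1 and 31.4 CPM with LPS, 31.6, 28.7 and 22.7 CPM with (+)-JQ1 before LPS and 31.6, 28.2 and 27.8 CPM with LPS + IL-10. Groups with LPS overlapped with each other and lay above the unstimulated libraries (1.22 ± 0.14 with LPS, FDR = 3.8e-12; -0.28 with (+)-JQ1, FDR = 0.25; -0.19 with IL-10, FDR = 0.40). Upstream, in an intron of Gm11110, the peak at -9345 bp rose by 1.12 ± 0.14 with LPS (FDR = 3.0e-10) and fell by 0.51 with (+)-JQ1 (SE 0.14, FDR = 0.011), a call lost without replicate 1 (-0.48) and without replicate 2 (-0.49, FDR = 0.23). The weaker peak beside it at -10665 bp, at 3.17 to 3.95 CPM with LPS, rose to 5.33 to 6.50 CPM with LPS + IL-10 (0.76 ± 0.21, FDR = 0.0076), a call lost without replicate 1 (0.67, FDR = 0.090) and without replicate 3 (0.69, FDR = 0.10). Its rise of 0.70 ± 0.23 with LPS (FDR = 0.017) was lost without replicate 2 (0.55, FDR = 0.23) and without replicate 3 (0.69, FDR = 0.074).

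Compared directly, LPS + (+)-JQ1 was higher than LPS + IL-10 at 22 of the 187 peaks and lower at 6, where 3.43% and 4.68% of all peaks were called higher and lower. Of the 22, 11 were around Cd40, 7 around Icosl, 3 around Cd86 and 1 around Cd80. At Cd40 +21786 bp the difference was 1.07 ± 0.19 (FDR = 1.4e-05), at Cd86 +67745 bp 0.98 ± 0.16 (FDR = 1.8e-06) and at Icosl +10719 bp 1.41 ± 0.18 (FDR = 1.9e-09). Among gene windows those of Cd40 (0.36 ± 0.08, FDR = 0.00081) and Icosl (0.29 ± 0.06, FDR = 0.00044) were higher and those of Pdcd1lg2 (-0.31 ± 0.07, FDR = 0.00065) and Tnfsf9 (-0.36 ± 0.06, FDR = 1.1e-05) lower, against 16.1% and 19.4% of all windows. Without replicate 1 and without replicate 2 the higher peaks numbered 14 and 13, and without library 1 of LPS + (+)-JQ1 alone, an alternative added after seeing the data, 14.

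(+)-JQ1 alone left all 7 windows without a call, where 22.9% and 25.5% of all windows were called higher and lower, with changes from -0.13 (Tnfsf9, FDR = 0.065) to 0.09 (Cd80, FDR = 0.19). After the loess offset the Tnfsf9 (-0.17, FDR = 0.021) and Cd86 (-0.15, FDR = 0.021) windows were called lower. IL-10 alone raised the Tnfsf9 window, from 52.5, 48.3 and 46.1 CPM to 56.2, 55.0 and 56.4 CPM (0.19 ± 0.06, FDR = 0.015), and left the other 6 without a call, where 13.2% and 15.1% of windows were called higher and lower. That call was lost without replicate 2 (0.20, FDR = 0.14) and without replicate 3 (0.14, FDR = 0.13), and after the loess offset it was 0.17 (FDR = 0.041).

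Single peaks were called, and more often among the strong ones. With (+)-JQ1 alone 15 of the 187 peaks were higher and 5 lower, close to the 7.85% and 3.15% of all peaks, and with IL-10 alone 19 were higher and 8 lower, against 5.16% and 3.5%. Of the 35 strong window peaks 14 were higher with (+)-JQ1 and 13 (37.1%) with IL-10, where 46.2% and 22.8% of all strong peaks were. These comparisons and that of LPS share the unstimulated libraries. After the loess offset the counts with (+)-JQ1 were 1 higher and 2 lower, where 1.32 and 2.27% of all peaks were called, and with IL-10 they were 5 and 4, against 1.42 and 1.63%. With total counts, which moved the median of all peaks to -0.37 and -0.26, most calls were lower. They were then 4 higher and 19 lower with (+)-JQ1, against 1.97 and 14.1% of all peaks, and 5 and 15 with IL-10, against 1.27 and 8.58%. Without replicate 2 the higher counts were 5 and 4, without replicate 1 the lower counts were 1 and 1, and without library 1 of the unstimulated group the IL-10 counts were 10 and 2. The part of the strength-dependent shift of the unstimulated libraries in these calls was not tested.

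Among the stronger peaks, Icosl +17709 bp held 14.9, 16.5 and 21.0 CPM unstimulated and 34.2, 33.4 and 32.5 CPM with (+)-JQ1 alone (0.93 ± 0.14, FDR = 4.4e-07), Cd80 -1417 bp 7.83 to 16.9 and 20.2 to 24.9 CPM (0.87 ± 0.15, FDR = 6.1e-06) and Cd80 +17344 bp 11.1 to 15.6 and 21.9 to 24.3 CPM (0.77 ± 0.14, FDR = 2.0e-05). None of them overlapped with the unstimulated group, and after the loess offset they stood at 0.49, 0.49 and 0.41, under the fold threshold. The promoter peaks of Icosl (+251 bp, 0.68) and Cd274 (-195 bp, 0.69) were higher with (+)-JQ1 too, but not after the loess offset (0.26, FDR = 0.15, and 0.24, FDR = 0.23) nor without replicate 2 (0.55, FDR = 0.11, and 0.64, FDR = 0.078). With IL-10 alone Tnfsf9 -9345 bp rose from 8.50, 10.5 and 13.7 CPM to 19.5, 18.6 and 19.3 CPM (0.80 ± 0.14, FDR = 4.8e-05, or 0.51 with an FDR of 0.0018 after the loess offset).

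The largest falls without LPS were at weak peaks. With (+)-JQ1 alone Cd40 +31766 bp changed by -2.06 ± 0.58 (FDR = 0.0070), Icosl -18262 bp, in an exon of Dnmt3l, by -1.52 ± 0.51 (FDR = 0.033) and Cd40 -2482 bp by -1.29 ± 0.40 (FDR = 0.019). With IL-10 alone Cd40 +41074 bp changed by -1.76 ± 0.48 (FDR = 0.0090), Cd40 -2482 bp by -1.49 ± 0.40 (FDR = 0.0075) and Cd86 +70170 bp by -1.34 ± 0.34 (FDR = 0.0044). None of these peaks was above 2.41 CPM in an unstimulated library, and at Cd40 -2482 bp library 1 held 2.41 CPM against 1.21 and 0.822 in the other 2. Without library 1 of the unstimulated group, an alternative added after seeing the data, Cd40 -2482 bp stood at -0.78 (FDR = 0.36) with (+)-JQ1 and -0.97 (FDR = 0.22) with IL-10, Cd40 +31766 bp at -1.35 (FDR = 0.24), Icosl -18262 bp at -1.35 (FDR = 0.14) and Cd40 +41074 bp at -1.66 (FDR = 0.052), all without a call. After the loess offset the 3 falls with (+)-JQ1 (FDR 0.056 to 0.16) and that of Cd40 +41074 bp with IL-10 (FDR = 0.054) were not called either. Cd86 +70170 bp lost its call without replicate 1 (-1.28, FDR = 0.061) and without replicate 2 (-1.09, FDR = 0.17).

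An interaction asked whether the response to LPS was itself different in treated cells, as the change with LPS in cells given (+)-JQ1 or IL-10 minus the change in cells given neither. With (+)-JQ1 it was lower at 17 peaks and higher at 0, against 3.19% and 0.649% of all peaks, and with IL-10 lower at 38 and higher at 2, against 5.9% and 2.01%. Of these, 9 and 16 of the lower ones were around Cd40. Of the 35 strong window peaks 10 were lower with (+)-JQ1 and 19 with IL-10, where 19 and 31.8% of all strong peaks were. After the loess offset 5 and 25 of the 187 were lower, against 0.528 and 1.88% of all peaks. With total counts 6 and 27 were lower, against 0.946 and 2.65%, and 1 and 5 higher, against 2.41 and 6.28%. That scaling moved the median of all peaks from 0.02 and 0.04 to 0.29 and 0.31, and the median of the 187 changed sign, from -0.22 and -0.16 to 0.05 and 0.11. Without replicate 2 the lower ones numbered 1 and 15, and without replicate 1 that with (+)-JQ1 numbered 7. Over gene windows Cd40 was lower in both (-0.79 ± 0.11, FDR = 6.2e-05, and -1.18 ± 0.11, FDR = 3.1e-08), and Cd86 (-0.22 ± 0.07, FDR = 0.019) and Icosl (-0.32 ± 0.09, FDR = 0.0077) with IL-10, where 10.2% and 8.89% of windows were called lower and higher with (+)-JQ1 and 15.2% and 15.8% with IL-10. Without replicate 2 and without replicate 3 the Cd86 value was -0.18 (FDR = 0.24 and 0.089) and the Icosl value -0.29 (FDR = 0.10) and -0.24 (FDR = 0.10).

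At the leading elements the interaction with IL-10 was -2.21 ± 0.36 at Cd40 +21786 bp (FDR = 1.1e-05), -2.19 ± 0.22 at Cd40 +19371 bp (FDR = 7.9e-12), -1.58 ± 0.25 at Cd86 +67745 bp (FDR = 5.9e-06) and -1.48 ± 0.28 at Icosl +10719 bp (FDR = 0.00018). With the loess offset all 4 were called. The last had an FDR of 0.055 without replicate 2 (-1.28), and the other 3 were called without each replicate. With (+)-JQ1 it was -1.57 ± 0.22 at Cd40 +19371 bp (FDR = 2.7e-06), also called without each replicate, and -1.24 ± 0.36 at Cd40 +21786 bp (FDR = 0.032), lost without replicate 1 (-1.38, FDR = 0.11), without replicate 2 (-1.16, FDR = 0.34), without replicate 3 (-1.20, FDR = 0.086) and after the loess offset (-1.27, FDR = 0.060).

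Promoters of the wider family were read from a list of 20 further ligands and costimulators, of which 19 had a promoter peak (all but Vtcn1). Of the 19, 14 were strong peaks of 10 CPM or more. With LPS 11 of the 19 rose and 0 fell, where 14.3% of promoter-class peaks and 27.9% of all strong peaks were called higher, among them Icam1, the adhesion ligand of LFA-1 (1.51), and Tnfsf4, Tnfsf14, Tnfsf15, Cd70 and Tnfsf13b of the TNF family. With (+)-JQ1 before LPS Cd276 and Vsir, further members of the B7 family, rose and 0 fell. Of promoter-class peaks 1.72% were called higher and 3.22% lower there, and of all strong peaks 4.63 and 3.49%. Both genes were also higher with (+)-JQ1 alone (0.76 and 0.80), and their interactions were not called. With IL-10 before LPS Cd276 rose and Icam1 fell (-0.55), against 3.04 and 3.94% of promoter-class peaks and 5.77 and 4.56% of strong peaks. Called higher with (+)-JQ1 alone and with IL-10 alone were 8 each and lower 0, both against the same unstimulated libraries, where 46.2 and 22.8% of all strong peaks and 22.9 and 8.72% of promoter-class peaks were called higher. After the loess offset 0 of the 19 were called with either agent alone, 7 were higher and 2 lower (Vsir and Cd24a) with LPS, and neither Cd276 nor Icam1 was called with IL-10 before LPS. Of 6 receptors on T cells 4 had a promoter peak (not Ctla4 or Cd40lg). With LPS Pdcd1 and Tnfrsf9, the genes of PD-1 and 4-1BB, rose and Cd28 fell, against 14.3 and 6.71% of promoter-class peaks. Pdcd1 fell with IL-10 before LPS, against 3.94%. The rise of Tnfrsf9 was not called after the loess offset.

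Over the 18 libraries, the promoter peaks most like that of each gene in log2 CPM, among 32239 outside the windows, were those nearest Wbp7 (Pearson r = 0.987) and Gm12216 (0.983) for Cd40, Ncstn (0.979) and Hipk1 (0.967) for Cd80, Vps37c (0.945) and Tatdn2 (0.940) for Cd86, Ddx58 (0.987) and Parp14 (0.984) for Cd274, Fam102a (0.955) and Kif23 (0.952) for Icosl, and Ildr1 (0.980) and Marcksl1 (0.958) for Tnfsf9. For the weak promoter peak of Pdcd1lg2 they were Gm10973 (0.820) and Lbx2 (0.817). The 18 points fall into 6 groups and share library depth, so these values describe likeness only.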

How the data were processed

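ATAC-seq libraries of Il10-/- bone marrow-derived macrophages were analysed from the table of raw read counts per peak that the authors deposited, made with Bowtie2 and MACS2 on mm9 per the labels. Peak coordinates are those in the deposited peak names. Another 6 columns of that table matched no sample and were not used. Counts were scaled by TMM and tested with edgeR 4.0.16 (R 4.3.3, quasi-likelihood, filterByExpr, group as the only term, all 18 libraries), with Benjamini-Hochberg adjustment over 194230 peaks or 18956 gene windows. SEs were derived from the F statistic.

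The members, gene lists and tests were chosen with earlier results of these data known. Named peaks were promoter-class peaks over a start of the gene, the peak with the smallest FDR per gene in each LPS comparison, and up to 3 called peaks with the largest change for each agent alone. Whether a library number stands for 1 mouse across groups is not given in the sources used here. On simulated data for LPS against unstimulated, 176 of 200 peaks changed by 1.5 on the log2 scale were recovered. The simulation had the same fixed spread for every peak and no strength-dependent shift, and changed only peaks above a minimum count. It does not give the recovery of smaller changes or of peaks below that count. Alternatives were DESeq2 1.42.0, other scalings, no filter, a replicate block, a lane term, each replicate left out, and smaller windows. In every group library 1 was on lane 5 and library 3 on lane 6. Library 2 was on lane 5 in the groups without LPS and on lane 6 in those with LPS, so lane and LPS partly coincide. The part of lane in the calls lost without replicate 2 was not tested.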

Additional observations from a re-analysis of the deposited data

Results flagged for a closer look

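The interactions of LPS with each agent met a test of the difference itself and are collected here, as the log2 fold-change with LPS in treated cells minus that in cells given neither agent, from edgeR with an FDR under 0.05. With (+)-JQ1 17 peaks were lower. Among named peaks the values were -0.84, -1.16, -1.57 and -1.24 at Cd40 +330, +5059, +19371 and +21786 bp, -0.75 at Cd80 -6737 bp, -0.79 at Cd274 -195 bp and -0.77 at Tnfsf9 -270 bp, and -0.79 over the Cd40 window. Of these the values at Cd40 +19371 bp and over the Cd40 window were called in every alternative run, and without replicate 2 the other 6 were not called.

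With IL-10 38 peaks were lower and 2 higher. Around Cd40 the values were -1.60, -1.57, -2.19 and -2.21 at the same 4 peaks and -1.18 over the window. They were -0.94 and -0.68 at Cd80 -6737 and -1417 bp, -1.58 and -1.95 at Cd86 +67745 and +73294 bp with -0.22 over its window, and -0.87 at Cd274 -195 bp. The Pdcd1lg2 peak at +73862 bp was higher by 0.87. Icosl had -0.81, -1.48 and -0.62 at +251, +10719 and +17709 bp and -0.32 over its window, and Tnfsf9 -1.05 and -0.79 at -9345 and -270 bp. The 4 Cd40 peaks, the Cd40 window and Cd86 +67745 bp were called in every alternative run.

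These values rest on the unstimulated libraries, and among all strong peaks of the series (10 CPM or more) 19% were lower in the interaction with (+)-JQ1 and 31.8% in that with IL-10. After the loess offset 5 of the named-peak values with (+)-JQ1 were no longer called (Cd40 +330 and +21786 bp, Cd80 -6737 bp, Cd274 -195 bp and Tnfsf9 -270 bp), nor were 6 of those with IL-10 (Cd80 -6737 and -1417 bp, Cd274 -195 bp, Icosl +251 and +17709 bp and Tnfsf9 -270 bp). The part of that shift in the values was not tested.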

How the results depend on the processing

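No called value of a named peak or gene window changed sign under an alternative run, but with total counts the calls with each agent alone went from mostly higher to mostly lower and the median interaction over the 187 peaks changed sign. DESeq2, its size factors, no filter, the lane term and the replicate block left the counts within 1.5 times, except that DESeq2 called 2 peaks lower with (+)-JQ1 alone. After group means were removed, libraries of the same number had a mean r of 0.0057 over 45 pairs (-0.082 to 0.064). The mean was -0.0029 over 90 pairs of different numbers, and 9 of 18 libraries were most like their own number. These values run over all tested peaks, most of them weak, and the part of counting noise in them was not tested. They cannot show whether a number stands for 1 mouse, and the replicate block rests on a shared number only. With the replicate block, LPS raised 72 peaks and the falls with (+)-JQ1 and IL-10 before LPS were 24 and 39, and of 240 named-peak values 1 lost its call (Cd86 +23306 bp with IL-10 alone, -0.64, FDR = 0.053 in edgeR) and 2 gained one. Leaving out each replicate, or library 1 of the unstimulated or LPS + (+)-JQ1 group alone, gave, for LPS + (+)-JQ1 against LPS, 0 to 5 higher and 14 to 29 lower peaks and 1 to 5 lower windows. It gave 2 to 6 higher peaks and 1 to 2 higher windows with IL-10 before LPS, 5 to 21 higher and 1 to 7 lower with (+)-JQ1 alone, and 4 to 22 higher and 0 to 8 lower with IL-10 alone. For LPS + (+)-JQ1 against LPS + IL-10 it gave 13 to 25 higher and 2 to 8 lower, and for the interactions 1 to 17 lower with (+)-JQ1 and 0 to 3 higher and 15 to 38 lower with IL-10. Total counts gave 2 lower with LPS, 4 higher and 19 lower with (+)-JQ1 alone, 5 and 15 with IL-10 alone, 1 higher and 6 lower in the interaction with (+)-JQ1 and 5 higher in that with IL-10. The loess offset gave 1 higher for LPS + (+)-JQ1 against LPS, 1 higher and 2 lower with (+)-JQ1 alone, 5 and 4 with IL-10 alone, and 5 and 25 lower in the interactions. Windows of 10 kb gave 2 higher with each agent before LPS, 3 lower with (+)-JQ1 alone and 1 higher in the interaction with IL-10, having fewer peaks. Windows of 25 kb around the start gave 2 and 2 higher, 22 lower with IL-10 before LPS, 3 lower with (+)-JQ1 alone, 5 lower with IL-10 alone, 3 lower for LPS + (+)-JQ1 against LPS + IL-10 and 1 higher in the interaction with IL-10. The causes of the scaling and library effects were not tested. Peaks near 1 CPM had SEs of 0.35 to 0.58, so that small changes there were not detectable at this depth.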
